A study of Mus musculus with 2 samples.

Results

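The cells described here were the Ackr1-positive post-capillary venule (PCV) endothelial cells (ECs) of YUMMER1.7 melanoma-bearing mice. There were 67 of them among 6999 ECs and 18823 deposited cells, with 23 cells in the control library and 44 cells in the Dnmt1iECKO library. They were chosen by their own transcripts. A cell needed at least 500 detected genes, mitochondrial UMIs (unique molecular identifiers, 1 per captured transcript) of at most 10%, a UMI of the endothelial genes Cdh5 or Pecam1, no UMI of Ptprc, Epcam, Cspg4 or Myh11, a UMI of Ackr1, and a UMI of at least 1 of Selp, Sele and Slc6a2. The levels of these genes in the chosen cells are therefore given as a description only.

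Both libraries came from live CD31+CD45- cells sorted from tumors of female mice aged 8 to 10 weeks, with the tumors of 3 mice pooled per library and 1 library per condition. The Dnmt1iECKO mice carried Cdh5CreERT2, Dnmt1fl/fl and ZsGreenlsl/lsl, so that tamoxifen activated a Cre driven by the endothelial Cdh5 promoter and acted on the floxed alleles of Dnmt1, the maintenance DNA methyltransferase. The label of the control library gives only the strain, C57BL/6, while the study describes its controls as carrying the Cre and the ZsGreen reporter without the floxed alleles. YUMMER1.7 is an immunogenic mouse melanoma line. The labels place the tumors under the skin of the shoulder and the study describes lung tumors for this experiment. Of the ECs outside the gate, 50.7% in control and 41.1% in Dnmt1iECKO held 2 or more of 7 markers of aerocytes, a capillary cell type of the lung. The label of both libraries names melanoma cells as the cell type, yet the chosen cells held 3 UMIs of 6 melanoma markers in the control library and 10 UMIs in the Dnmt1iECKO library.

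PCVs are the short vessels just downstream of capillaries, and leukocytes leave the blood mainly through their walls. Their ECs store P-selectin, the product of Selp, in Weibel-Palade bodies together with von Willebrand factor, and make E-selectin, the product of Sele, after stimulation by cytokines. P-selectin and E-selectin slow passing leukocytes, after which ICAM1 and VCAM1 hold them firmly. Ackr1 encodes the atypical chemokine receptor also known as the Duffy antigen, which binds inflammatory chemokines without signaling through G proteins and moves them across venular ECs. Slc6a2 encodes the noradrenaline transporter and marks venous ECs of the lung, and Nr2f2 encodes the transcription factor that sets vein identity.

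Because DNMT1 copies methylation at CpG dinucleotides, the sequence upstream of the RefSeq starts of Ackr1, Selp and Sele is shown with every CpG in capitals. Slc6a2 had no entry in the RefSeq table used. Each run covers the 250 bases before the RefSeq start on GRCm38.p6, read 5′ to 3′ on the strand of the gene. Ackr1 lies on the minus strand (chr1:173333504-173333753 for this run), and Selp (chr1:164115014-164115263) and Sele (chr1:164047984-164048233) lie on the plus strand. In the gene positions used here Ackr1 spans chr1:173331886-173333750, so nearly all of its run lies inside that span. The runs of Selp and Sele end just before the genes, which start at 164115264 and 164048234.
Ackr1: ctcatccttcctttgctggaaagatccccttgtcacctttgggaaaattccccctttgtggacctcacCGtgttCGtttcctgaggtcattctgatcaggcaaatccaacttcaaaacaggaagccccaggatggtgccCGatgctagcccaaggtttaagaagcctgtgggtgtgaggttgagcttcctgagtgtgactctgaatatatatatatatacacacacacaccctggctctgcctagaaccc
Selp: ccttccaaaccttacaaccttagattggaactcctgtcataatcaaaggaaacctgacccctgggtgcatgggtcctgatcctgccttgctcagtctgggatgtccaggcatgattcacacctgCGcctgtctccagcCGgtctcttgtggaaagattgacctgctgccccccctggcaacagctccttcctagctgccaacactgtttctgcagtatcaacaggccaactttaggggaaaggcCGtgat
Sele: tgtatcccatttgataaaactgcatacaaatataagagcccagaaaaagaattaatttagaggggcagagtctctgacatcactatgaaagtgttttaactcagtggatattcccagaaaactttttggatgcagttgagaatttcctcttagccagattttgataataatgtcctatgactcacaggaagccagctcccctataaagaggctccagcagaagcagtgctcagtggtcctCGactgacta
There were 3 CpG in the Ackr1 run, 3 in the Selp run and 1 in the Sele run. Across 32851 promoters of the same length in the table, the median was 6 CpG and 37.8% held 3 or fewer. No methylation was measured in these libraries.

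The chosen cells were more deeply sampled than other ECs, with like medians in both libraries. The median was 20527 UMIs per cell in the control library and 20626.5 in the Dnmt1iECKO library, against 9635 and 9660 in the other ECs. The upper quartile was 29594.5 and 37316 UMIs, and the highest cell had 96594 and 58439. The summed depth was 538517 UMIs in 23 cells and 1085722 UMIs in 44 cells. The libraries held 9301 and 9522 deposited cells and shared 29 barcodes, and no barcode belonged to a chosen cell in both libraries. Ackr1 was absent from all 123 control and all 79 Dnmt1iECKO Epcam-positive cells with no Ptprc, Cdh5 or Pecam1 (median 23740 UMIs in control). It was found in 0 of 572 and 4 of 2109 Ptprc-positive cells with none of the other 3 genes, so free Ackr1 transcript was rarely found in these 2 classes. The exact 95% upper bounds were 2.95% and 4.56% of the Epcam-positive cells and 0.643% and 0.485% of the Ptprc-positive cells. Whether free transcript brought cells with a single Ackr1 UMI into the gate was not tested. All intervals below are exact 95% intervals (Clopper-Pearson for shares, Poisson for summed counts) that cover counting error only. UMIs of a gene can sit in few cells, cells of a library are not replicates, and with 1 library per condition no test of the genotype was possible.

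The count of the targeted gene gave no stable direction between the libraries in these cells. Dnmt1 (chr9:20907209-20959888, GRCm38) had 16 UMIs in 11 of 23 control cells and 48 UMIs in 16 of 44 Dnmt1iECKO cells, or 29.7 and 44.2 CPM (the UMIs of a gene summed over cells and scaled to the same total). The log2 ratio of Dnmt1iECKO over control was 0.57 (-0.27 to 1.49), but 22 of the 48 UMIs lay in 1 cell with mitotic transcripts. Without the cell with the most Dnmt1 UMIs in each library the ratio was -0.03 (-1.04 to 1.05), and without the 5 cells that held such transcripts it was -0.77 (-1.86 to 0.33). The ratio was -1.41 in cells with 5000 to 30000 UMIs and -1.46 without cells with 2 or more immune, epithelial or fibroblast markers. Without cells with 2 or more aerocyte markers it was 1.02 (0.01 to 2.17). In the other ECs the level was 49.0 CPM (control) and 25.7 CPM (Dnmt1iECKO), a log2 ratio of -0.93 (-1.05 to -0.80). The kit reads the 3′ end of transcripts, which need not include the deleted exons, so the count does not check the deletion.

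Ackr1-positive PCV ECs were the larger share of ECs in the Dnmt1iECKO library. They made up 0.467% (0.296 to 0.700) of 4922 control ECs and 2.12% (1.54 to 2.83) of 2077 Dnmt1iECKO ECs, a 4.53-fold difference (2.68 to 7.87). The denominator bears on the size of this difference, because the Dnmt1iECKO library held fewer ECs among a like number of cells. Over all 8021 and 8102 cells that passed the quality filters, the share was 0.287% (0.182 to 0.430) against 0.543% (0.395 to 0.728), a 1.89-fold difference (1.12 to 3.29). ECs without Ackr1 but with Selp, Sele or Slc6a2 were also a larger share, 9.28% (8.49 to 10.1) in control against 15.4% (13.8 to 17.0) in Dnmt1iECKO, or 1.65-fold (1.43 to 1.91). Among ECs with any of Selp, Sele and Slc6a2, the part that also held Ackr1 was 4.79% (23 of 480) in control and 12.1% (44 of 363) in Dnmt1iECKO, 2.53-fold (1.49 to 4.39). The intervals of the 2 libraries did not overlap in any of these shares except over all cells, where they met between 0.395% and 0.430%. How far the sort of each pool set these shares was not tested.

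**Figure D1:**
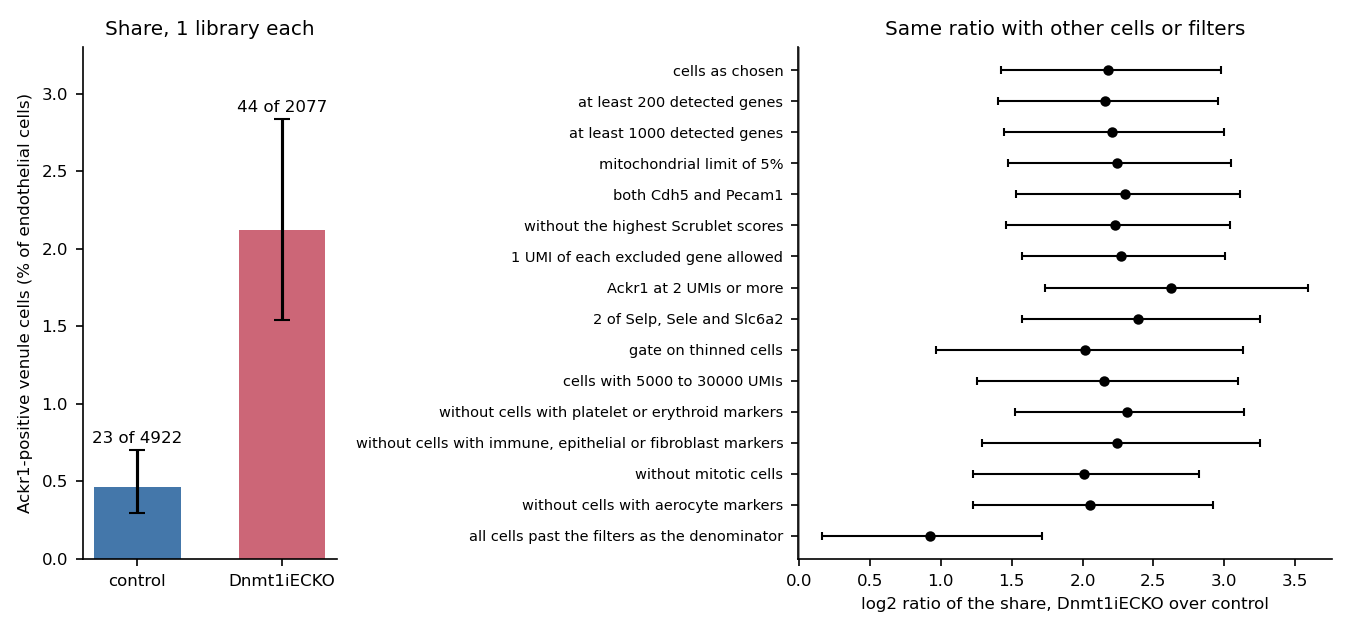
Left, bars give the percentage of ECs that were Ackr1-positive PCV ECs in each library (1 library per condition), with exact 95% intervals of the cell counts. Right, the log2 ratio of the 2 shares (points, with exact intervals) for the cells as chosen and for other filters: 15 of the 16 points lie above 2.0, and the one with all cells as the denominator lies at 0.92.

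The larger share was also seen at equal sampling depth and away from the detection limit. After each EC was thinned to 2000 UMIs, Ackr1 was still found in 14 of 4564 control ECs (0.307%, 0.168 to 0.514) and 22 of 1904 Dnmt1iECKO ECs (1.16%, 0.725 to 1.74), 3.77-fold. Cells with a single Ackr1 UMI, just inside the gate, numbered 8 of 23 in control and 5 of 44 in Dnmt1iECKO, and cells with 10 or more numbered 11 and 21. Just outside it, 2 control and 1 Dnmt1iECKO ECs had Ackr1 but none of Selp, Sele and Slc6a2, and 16 and 18 ECs had all 3 of them but no Ackr1. Within the gate the median was 9 UMIs of Ackr1 (1 to 83) per control cell and 8.5 UMIs (1 to 89) per Dnmt1iECKO cell. The summed level was 802 CPM in control and 603 CPM in Dnmt1iECKO, a log2 ratio of -0.41 (-0.59 to -0.23).

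Most chosen cells carried more than the minimum of the gate. All 4 genes were found in 10 control and 24 Dnmt1iECKO cells. Selp was the most frequent partner of Ackr1, in 19 of 23 and 43 of 44 cells, with 4282 and 4703 CPM. Slc6a2 was found in 18 and 35 cells at 360 and 577 CPM, and Sele in 15 and 32 cells at 1034 and 813 CPM. The 3 control cells and 1 Dnmt1iECKO cell with Slc6a2 as their only partner of Ackr1 lacked both selectins.

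Some venous genes outside the gate were found in nearly all chosen cells. Vwf (von Willebrand factor) was found in 22 of 23 and 42 of 44 cells, Nr2f2 in 22 of 23 and 44 of 44, and Lrg1, a secreted glycoprotein abundant in venular endothelium, in 21 of 23 and 43 of 44. Others were found in fewer cells. Amigo2 was found in 15 of 23 and 23 of 44, and Eln in 22 of 23 and 26 of 44. Detection of Vwf or Nr2f2 alone did not mark these cells. Vwf was also found in 38.9% and 36.8% of other ECs, in 8.57% and 7.78% of the Ptprc-positive cells and in 2.44% and 2.53% of the Epcam-positive cells. The corresponding shares for Nr2f2 were 18.1% and 25.6%, 3.5% and 3.7%, and 53.7% and 65.8%. A list of 12 vein markers summed to 6481 CPM in control and 6026 CPM in Dnmt1iECKO venule cells, against 882 and 1153 CPM in the other ECs. The level of genes that the gate did not use was thus that of venous cells. In ECs with Selp, Sele or Slc6a2 and no Ackr1 the same markers summed to 2360 and 2961 CPM. The list does not by itself set post-capillary venules apart from other veins. Capillary genes were lower than elsewhere: 6 general capillary markers summed to 1315 and 1185 CPM, against 5012 and 4512 CPM in other ECs, and the aerocyte markers to 407 and 55.3 CPM, against 2161 and 1419 CPM.

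Transcripts of Car4 in the control cells lay mostly at the edge of the gate. Car4, a carbonic anhydrase of lung capillary ECs, had 78 UMIs in 5 control cells, of which 3 cells held 96.2%, and 11 UMIs in 6 Dnmt1iECKO cells. Control cells with a single Ackr1 UMI had 502 CPM of Car4 and those with 10 or more had 8.90 CPM. Gpihbp1, the lipase anchor of capillary ECs, was at 268 and 86.0 CPM in the same cells, while Kit, a receptor of general capillary ECs, was at 167 and 142 CPM. In Dnmt1iECKO Car4 was at 0 and 7.36 CPM and Gpihbp1 at 68.2 and 57.1 CPM. The 8 control cells with a single Ackr1 UMI had 141 CPM of Nr2f2 and 656 CPM of Lrg1, against 451 and 2207 CPM in the 11 control cells with 10 or more Ackr1 UMIs. In the Dnmt1iECKO library the corresponding Lrg1 levels were 761 CPM in 5 cells and 1760 CPM in 21 cells, and those of Nr2f2 were 375 and 394 CPM. Cells with a single Ackr1 UMI thus had the lower Lrg1 in both libraries, while the gap in Nr2f2 was seen in control and hardly in Dnmt1iECKO. Vcam1 did not follow this order, with 2899 CPM at 1 Ackr1 UMI and 2471 CPM at 10 or more in control, and 3454 and 3531 CPM in Dnmt1iECKO.

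**Figure D2:**
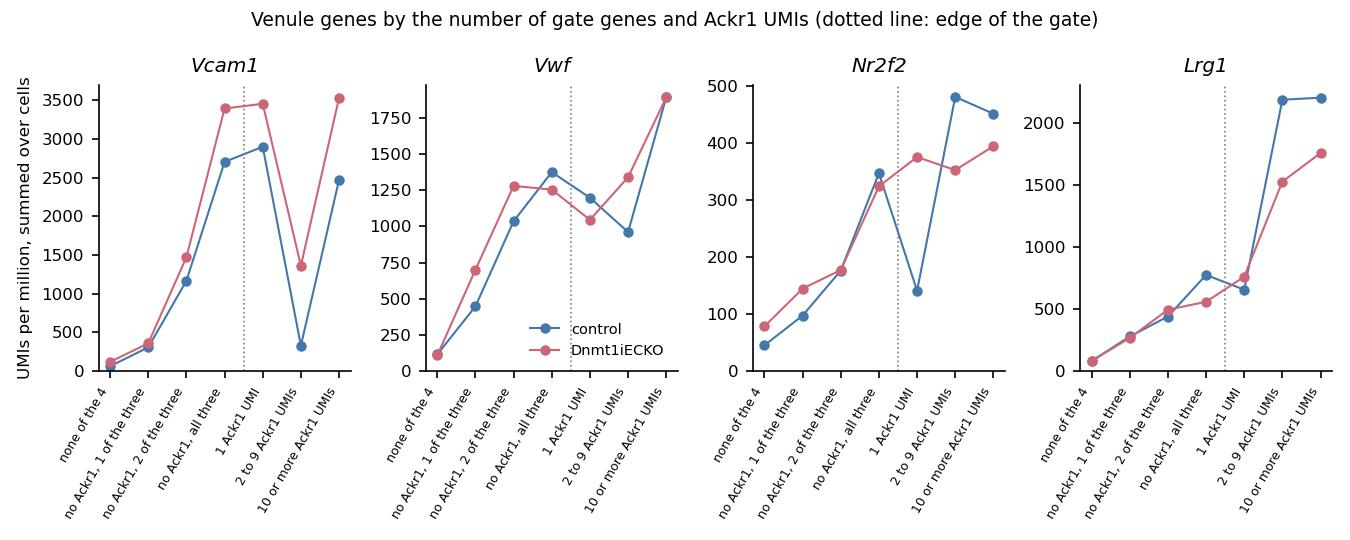
Level of Vcam1, Vwf, Nr2f2 and Lrg1 in CPM (UMIs summed over the cells of a class) for ECs ordered by the gate genes they held and, right of the dotted line, by their Ackr1 UMIs, with 1 point per library and class. In both libraries Lrg1 is highest in cells with 10 or more Ackr1 UMIs, at 2207 CPM in control and 1760 CPM in Dnmt1iECKO, while Vcam1 is already at 2703 and 3394 CPM in cells with all 3 partners and no Ackr1.

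Genes that set the venule cells apart from other ECs were largely shared by the libraries. Of 3108 genes with at least 100 UMIs in the venule cells of both libraries together, 206 (6.63%) were 2-fold or more above the other ECs in each library and 102 (3.28%) were at 0.5 times or less. Taken library by library, 9.3% of the genes were 2-fold or more above and 4.44% at 0.5 times or less in control, and 8.01% and 4.44% in Dnmt1iECKO. These counts describe the genes that go with a gate set on transcripts of the same cells. The minimum applied to the venule cells only, so genes low in them could drop out, and 0 of the 7 aerocyte markers reached it. The excess of higher over lower genes follows in part from that. The genes of vein identity stood well above that background, with 11 of 14 at least 2-fold higher in both libraries and a median log2 difference of 2.56 in control and 1.92 in Dnmt1iECKO. Among them Vwf was at 1610 and 1592 CPM against 194 and 287 CPM in other ECs, and Nr2f2 at 368 and 375 CPM against 57.6 and 97.8 CPM. Venule cells differed less from the ECs with Selp, Sele or Slc6a2 and no Ackr1, which share part of this trait. Against these the log2 difference was 1.31 in control and 0.80 in Dnmt1iECKO for Vwf, and 1.51 and 1.17 for Nr2f2. It was 0.55 and 0.34 for Prss23, 0.76 and -0.07 for Amigo2, and 0.60 and -0.37 for Eln.

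Tnfrsf11a, Tnfrsf9 and Traf1, of the tumor necrosis factor (TNF) receptor pathways, were among the 15 leading genes. Tnfrsf11a, the receptor RANK, was at 70.6 CPM in control and 93.9 CPM in Dnmt1iECKO venule cells, against 1.97 and 2.88 CPM in other ECs, a log2 difference of 5.16 and 5.03. It was found in 10 of 23 and 21 of 44 venule cells, and 1 cell held 44.7% of its UMIs in control and 35.3% in Dnmt1iECKO. Tnfrsf9, the costimulatory receptor 4-1BB, differed by 5.76 and 4.70, and Traf1, an adaptor of such receptors, by 4.75 and 4.08.

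Ptgs2, Pla2g4a and Ch25h were also among the 15. Ptgs2, which encodes cyclooxygenase-2, was at 1086 and 912 CPM in venule cells against 37.7 and 61.7 CPM in other ECs. Pla2g4a, the cytosolic phospholipase A2 that frees arachidonic acid for that enzyme, was at 303 and 228 CPM against 13.1 and 23.7 CPM. Ch25h, which makes 25-hydroxycholesterol, was at 407 and 333 CPM against 17.7 and 27.7 CPM.

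The remaining leading genes were Fjx1, 2200002D01Rik, Plekha7 (an adherens junction protein), Mir155hg (the host gene of miR-155), Spint2 (a serine protease inhibitor), Cpe (carboxypeptidase E), Lrg1, Tll1 (a metalloprotease) and Adamtsl3. All 15 leading genes were at least 3.27 log2 units above the other ECs in both libraries, although a single cell held over 25% of the UMIs in 9 of them in control and in 4 in Dnmt1iECKO, at most 63.9% (Adamtsl3) and 52.8% (Fjx1). At the other end, Tmem100 and Bmp6, genes of the BMP pathway that capillary ECs express strongly, were 2.45 and 1.91 log2 units below the other ECs in control and 3.38 and 3.15 below in Dnmt1iECKO.

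**Figure D3:**
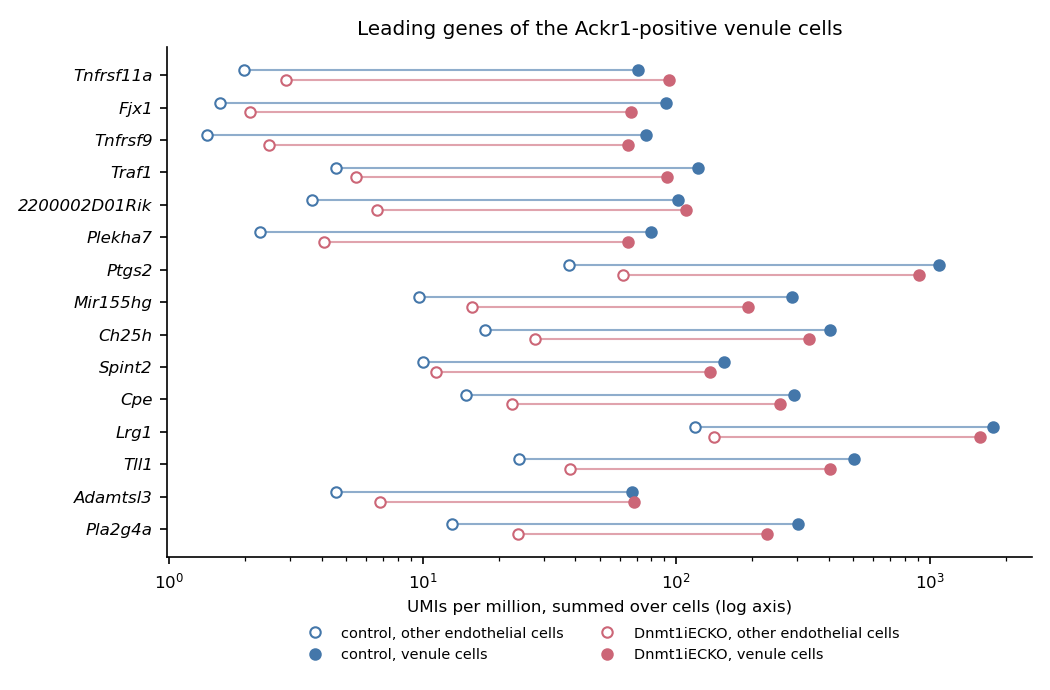
Level in CPM (log axis) of the 15 leading genes in venule cells (filled circles) and in other ECs (open circles) of each library, as UMIs summed over cells. In every gene both filled circles lie at least 3.27 log2 units to the right of the open circle of the same library.

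Cells with and without Ackr1 were also compared where they shared every other gate gene. Among ECs with all 3 of Selp, Sele and Slc6a2, the 10 control and 24 Dnmt1iECKO cells with Ackr1 were set against the 16 and 18 without it, leaving out the 4 gate genes. Of 3396 genes with at least 100 UMIs in these 68 cells, 22 (0.648%) were at least 2-fold higher with Ackr1 in both libraries and 15 (0.442%) were at 0.5 times or less. How many genes would pass if these cells were split at random was not tested. The cells with Ackr1 were also deeper, with medians of 26978 and 24167 UMIs against 19616.5 and 20638, and the part of depth in their selection was not tested.

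The genes higher beside Ackr1 included Lrg1, Mctp1, Olr1 and Ubd. Lrg1 was at 2026 CPM with Ackr1 and 775 CPM without it in control, and at 1509 and 558 CPM in Dnmt1iECKO. Mctp1, a calcium-binding membrane protein, was at 3139 against 848 CPM in control and higher by 1.78 log2 units in Dnmt1iECKO. Olr1 (the receptor for oxidized low-density lipoprotein), Vcan (versican), Clu (clusterin) and Il33 (an alarmin cytokine) were higher by 3.18, 2.09, 1.28 and 2.98 in control and by 1.28, 3.12, 2.81 and 1.06 in Dnmt1iECKO. Ubd, an interferon-inducible ubiquitin-like gene, was at 54 UMIs with Ackr1 and 1 UMI without it in control, and at 224 and 5 UMIs in Dnmt1iECKO. The 54 control UMIs lay in 2 cells, with 32 and 22, and 1 cell held 157 of the 224 in Dnmt1iECKO. Of the UMIs in the cells with Ackr1, a single cell held 49.7% and 46.2% for Olr1, 59.7% and 63.0% for Vcan and 39.2% and 36.2% for Il33. These genes were chosen from the 22 after their values were seen, apart from Lrg1 and Ubd.

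Genes lower beside Ackr1 included Edn1, the vasoconstrictor endothelin-1, and Sox17, a transcription factor of arterial ECs. Edn1 was lower by 2.35 log2 units in control and 1.42 in Dnmt1iECKO, and Sox17 by 1.39 and 1.16. With Ackr1, Edn1 had 19 and 28 UMIs, so it passed the minimum through the cells without Ackr1. By contrast Vcam1 differed little, with a log2 difference of 0.02 (-0.11 to 0.15) in control and -0.15 (-0.25 to -0.05) in Dnmt1iECKO, as did Nr2f2, at 0.06 (-0.32 to 0.44) and 0.27 (-0.04 to 0.58). Icam1 was lower with Ackr1 in both libraries, by 0.68 and 0.27. Ptgs2 and Ch25h were higher with Ackr1 in control, by 1.93 and 1.48, and differed by 0.09 and -0.23 in Dnmt1iECKO, a contrast that was not tested.

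Between genotypes, the measured adhesion and venous genes inside the venule cells stayed within 2-fold in the summed counts. The background for this comparison was 43 genes (1.38%) at least 2-fold higher in Dnmt1iECKO and 35 genes (1.13%) at 0.5 times or less, out of 3108, with a median log2 ratio of -0.0057 over all of them. Any higher level in Dnmt1iECKO was found for 49.4% of the 3108 genes. None of the 9 measured genes of leukocyte adhesion that the gate did not use and none of the 14 genes of vein identity passed 2-fold in either direction. At these background shares, a count of 0 among so few genes does not set them apart from all genes. The median log2 ratio was 0.18 for adhesion and -0.22 for vein identity, with 7 of 9 and 2 of 14 members higher in Dnmt1iECKO. The lowest vein gene, Eln (elastin), was at -0.74 (-1.11 to -0.37) and came up to 0.0080 under an alternative, Amigo2 was at -0.47 (-1.02 to 0.09), and the highest, Prss23, was at 0.27 (0.09 to 0.46). The vein median turned to 0.10 when each cell weighed the same and to 0.67 in cells with 5000 to 30000 UMIs, so its direction was not stable.

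Vcam1, which holds rolling leukocytes through integrin α4β1, was abundant in the venule cells of both libraries (chr3:116109949-116129688, GRCm38). It was found in 20 of 23 control and 44 of 44 Dnmt1iECKO cells. Single cells ranged from 0 to 7666 CPM around a median of 982 CPM in control and from 46.8 to 8167 CPM around 2214 CPM in Dnmt1iECKO, so the ranges overlapped almost fully. The summed levels were 2382 and 2616 CPM, a log2 ratio of 0.13 (0.04 to 0.23). This ratio ranged from -0.014 without cells with 2 or more aerocyte markers to 0.58 in cells that passed the gate after thinning. In the other ECs the same gene was at 148 and 293 CPM, a log2 ratio of 0.98.

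For abundant venous genes the ratio depended on the cells used. The log2 ratio of Vwf was -0.02 (-0.13 to 0.10) in venule cells and 0.56 in other ECs, and that of Nr2f2 was 0.03 (-0.22 to 0.28) and 0.76. In cells with 5000 to 30000 UMIs the venule ratios were 0.83 for Vwf and 0.69 for Nr2f2, and 1 control cell held 32.6% of the Vwf UMIs and 26.8% of the Nr2f2 UMIs of that library. Across the vein identity list, 13 of 14 genes were higher in Dnmt1iECKO in the other ECs, with a median of 0.59. The medians also differed for the inflamed venule list, at 0.10 (6 of 10 higher) in venule cells and 0.36 (10 of 10) in other ECs, and for basement membrane and matrix, at -0.08 (6 of 13) and 0.41 (12 of 13). In the ECs with Selp, Sele or Slc6a2 and no Ackr1 the medians were between, at 0.33 for vein identity, 0.17 for the inflamed venule list and 0.09 for matrix. For vein identity that median lay nearer to the other ECs, and for the inflamed venule and matrix lists nearer to the venule cells. Whether the ratio differs between venule cells and other ECs was not tested, since each rests on the same 1 library per genotype.

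**Figure D4:**
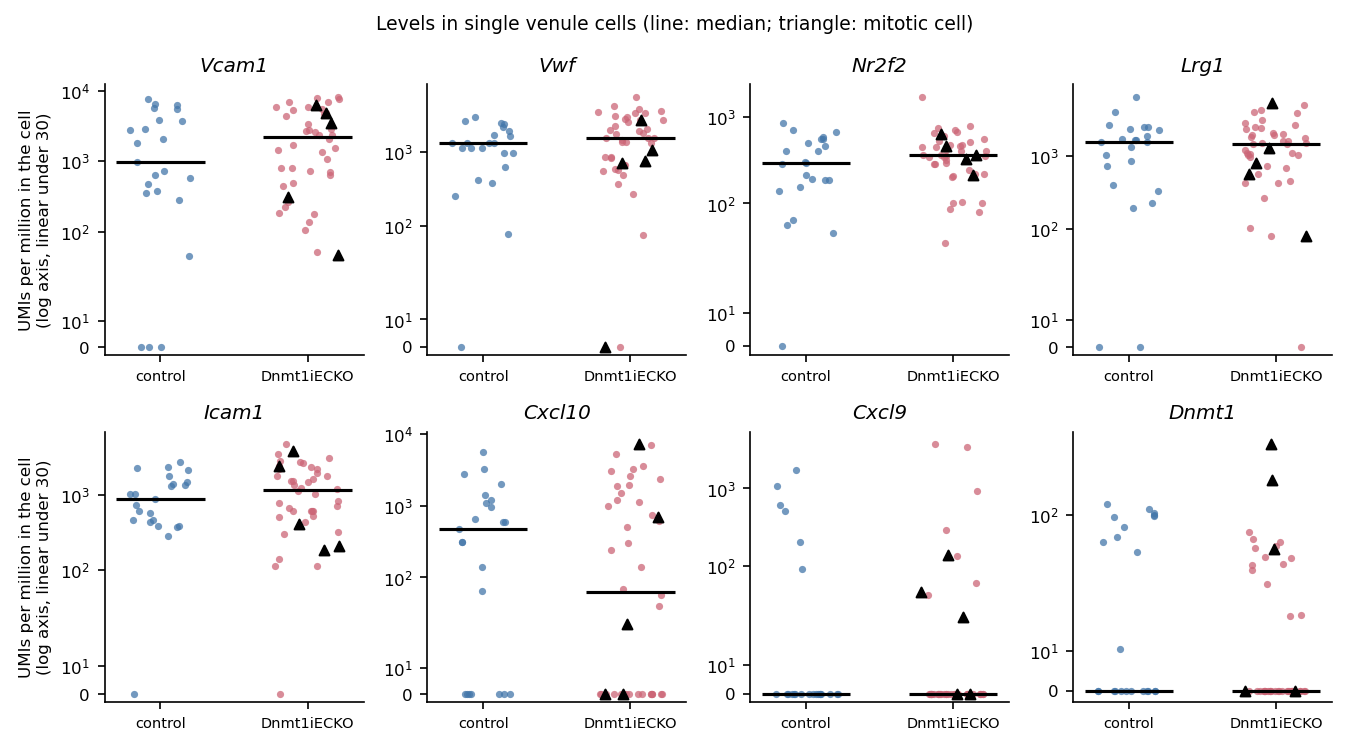
Level of 8 genes in each of the 23 control and 44 Dnmt1iECKO venule cells, in CPM of the cell (log axis, linear under 30), with the median as a line and the 5 cells with 3 or more mitotic genes as triangles. Vcam1, Vwf, Nr2f2, Lrg1 and Icam1 overlap broadly between libraries, whereas Cxcl9 is above 0 in only 6 control and 10 Dnmt1iECKO cells.

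Interferon gamma (IFNγ) response genes were mixed, with a few cells carrying the highest levels. Of 41 measured genes 28 were higher in Dnmt1iECKO, 3 of them past 2-fold and 1 at 0.5 times or less, and the list's median log2 ratio was 0.11 (0.06 in other ECs). Of all 3108 genes 49.4% were higher, 1.38% were at least 2-fold higher and 1.13% were at 0.5 times or less. The median of the list was -0.14 without cells that held 2 or more immune, epithelial or fibroblast markers, and -0.049 when 1 UMI of each excluded gene was allowed. Abundant members hardly differed. B2m, the light chain of MHC class I, had a log2 ratio of 0.11 (0.04 to 0.19), and Iigp1, an immunity-related GTPase, -0.04 (-0.14 to 0.05).

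Members at the extremes were uneven between cells. Ubd had 62 UMIs in 6 control cells and 528 UMIs in 13 Dnmt1iECKO cells, or 115 and 486 CPM, a log2 ratio of 2.08 (1.70 to 2.48). The 3 highest cells held 93.5% of its UMIs in control and 70.1% in Dnmt1iECKO. When 1 UMI of each excluded gene was allowed, the ratio of Ubd was 0.04, and it was 0.91 in cells with 5000 to 30000 UMIs. Cd274, which encodes the checkpoint ligand PD-L1, had 36 UMIs in 10 cells and 189 UMIs in 20 cells, a log2 ratio of 1.38 (0.86 to 1.94) against 0.06 in other ECs. In Dnmt1iECKO 2 cells held 57 and 52 of these UMIs, and the ratio was 0.06 when 1 UMI of each excluded gene was allowed, 0.10 without cells with immune, epithelial or fibroblast markers, and 0.98 without cells with aerocyte markers. The share of cells with Cd274 was alike, 43.5% (23.2 to 65.5) and 45.5% (30.4 to 61.2). The lowest member was Gbp8, a guanylate-binding protein, at 212 and 82.9 CPM, a log2 ratio of -1.35 (-1.77 to -0.94), a value that reads shared with its close paralogs could alter.

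The CXCR3 ligands, which draw activated T cells, differed in how many venule cells held them. Cxcl9 had 98 UMIs in 6 of 23 control cells (26.1%, 10.2 to 48.4) and 349 UMIs in 10 of 44 Dnmt1iECKO cells (22.7%, 11.5 to 37.8). A single cell held 56 of the 98 UMIs, and a single cell 195 of the 349. The log2 ratio of the sums was 0.82 (0.49 to 1.16), it was 0.12 when each cell weighed the same, and it was -0.50 without cells with 2 or more aerocyte markers, so no direction is given for Cxcl9 in these cells. Cxcl10 was found in 16 of 23 and 25 of 44 cells at 962 and 1417 CPM, a log2 ratio of 0.56 (0.41 to 0.70), although its median per cell was 480 CPM in control and 62.9 CPM in Dnmt1iECKO and its ratio was -0.04 without the cells with aerocyte markers and -0.58 without those with immune, epithelial or fibroblast markers. Cxcl9 was found in 0.813% (1 of 123) of the control and 6.33% (5 of 79) of the Dnmt1iECKO Epcam-positive cells. In Ptprc-positive cells, which include macrophages known to make Cxcl9, it was found in 14.2% and 16.9%. After thinning it was found in 39 of 553 of these cells and 4 of 23 venule cells in control, and in 223 of 2032 and 3 of 44 in Dnmt1iECKO. In the chemokine list without Ackr1, 3 of 4 were higher, with a median of 0.69, but these 3 were Cxcl9, Cxcl10 and Cxcl1, each of which was below 0 under an alternative given here, so no direction is given for the list. Cxcl1, a neutrophil attractant, had 34 and 158 UMIs, and 91 of the 158 lay in 1 cell. Its log2 ratio was 1.20 from the sums and -0.21 when each cell weighed the same.

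The other response lists had medians between -0.23 and 0.25. Type I interferon genes had a median log2 ratio of -0.23 with 5 of 17 higher, and Ifit1 was the only member at 0.5 times or less, at 162 and 76.4 CPM (-1.08, -1.53 to -0.63). For nuclear factor kappa B (NF-kB) and TNF the median was 0.05, with 11 of 21 higher and Cxcl1 past 2-fold, leaving out Sele as a gate gene. Its most abundant measured members, Vcam1 and the inhibitor gene Nfkbia, were at 0.13 and -0.08, and the lowest, the inhibitor of apoptosis gene Birc3, at -0.76 (-1.03 to -0.49). For Birc3 3 control cells held 60.6% of the UMIs, and the ratio was -0.054 without cells with immune, epithelial or fibroblast markers. All 5 measured MHC class II genes were higher in Dnmt1iECKO, with a median of 0.25 in venule cells and 0.26 in other ECs, and Cd74, the invariant chain, was at 1740 and 2072 CPM. The intervals of H2-Ab1, H2-Aa and H2-DMb1 included 0, and without cells with immune, epithelial or fibroblast markers their ratios were -0.26, -0.04 and -0.14.

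Among checkpoint ligands and costimulators the level varied widely. Cd200 and Tnfsf10 (TRAIL), the most abundant, were at 806 and 514 CPM in control and 753 and 369 CPM in Dnmt1iECKO. Cd40 had 8 and 27 UMIs in 5 and 13 cells, Icosl had 6 and 3 UMIs, and Tnfsf4 (OX40L) had none in either library, where 3 counts would be 5.57 CPM in control and 2.76 CPM in Dnmt1iECKO and the exact upper bounds are 6.85 and 3.40 CPM. The checkpoint and costimulator list as a whole had a median of -0.06, with 3 of 7 higher and Cd274 past 2-fold. In the lymphotoxin receptor and alternative NF-kB list 6 of 8 were higher, with a median of 0.25, and among the high endothelial venule genes 3 of 6 were higher, with a median of -0.02. Barrier genes had a median of 0.05 without Cdh5 (6 of 11 higher), receptors for cytokines and other mediators 0.05 (8 of 14), genes of dissociation and immediate early response -0.10 (6 of 16, with Jun at -0.30 and Fos at -0.15), hemostasis without Selp -0.18 (2 of 9) and angiogenesis -0.25 (1 of 7). In the DNA methylation list the log2 ratio was -0.33 for Uhrf2 and -0.18 for Mbd2, and no germline gene that methylation silences reached 100 UMIs, with 14 of 21 at 0.

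**Figure D5:**
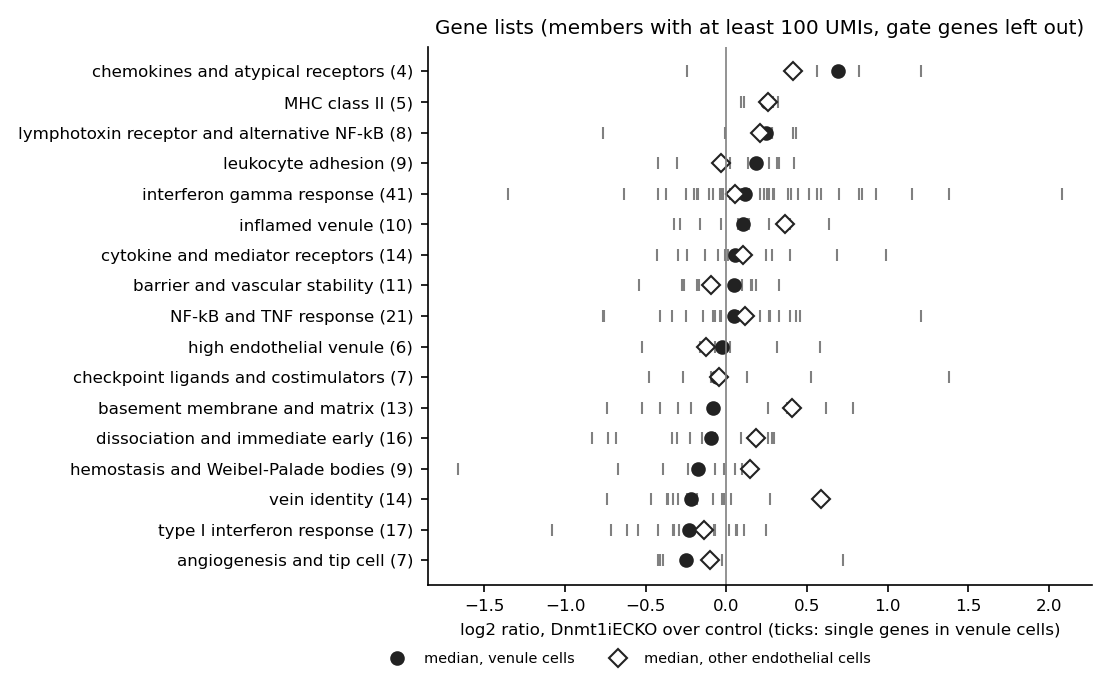
Log2 ratio of Dnmt1iECKO over control for 17 gene lists without the genes of the gate, with the number of measured genes in brackets, the median in venule cells (filled circles) and in other ECs (open diamonds), and single genes in venule cells as ticks. Vein identity lies at -0.22 in venule cells and 0.59 in other ECs, and the chemokine median of 0.69 comes from Cxcl9 and Cxcl10, which were at -0.50 and -0.04 without cells with aerocyte markers.

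Transcripts of mitosis were concentrated in a few Dnmt1iECKO venule cells. With 3 or more of 14 mitotic genes as the mark, chosen after their values were seen, 5 of 44 Dnmt1iECKO cells (11.4%, 3.79 to 24.6) and 0 of 23 control cells (3 counts would be 13.0%, and the exact upper bound is 14.8%) met it, and the intervals of the 2 shares overlapped. After thinning to 2000 UMIs 3 of 44 and 0 of 23 remained. In other ECs the same mark was met by 3.61% (3.11 to 4.17) in control and 3.59% (2.82 to 4.49) in Dnmt1iECKO. In ECs with Selp, Sele or Slc6a2 and no Ackr1, the class most like the venule cells, it was met by 9.41% (6.89 to 12.5) in control and 6.58% (4.12 to 9.89) in Dnmt1iECKO.

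Of these 5 cells, 3 held nearly all of the signal. Mki67, the proliferation marker, had 104, 89 and 53 UMIs in them, or 92.8% of 265 UMIs, and Top2a, a DNA topoisomerase of dividing cells, had 123, 77 and 75 UMIs, or 99.3% of 277. Neither gene had a UMI in the control venule cells. Of the 20 cell cycle genes only 5 reached 100 UMIs, and 4 of those did so through Dnmt1iECKO cells alone, with 0 UMIs in control, so their direction followed from the count minimum. The other one, Pcna, had 44 and 93 UMIs, a log2 ratio of 0.07. With a floor of 3 counts over the control cells the log2 ratio is 5.45 for Mki67 and 5.52 for Top2a, and the exact lower bounds are 5.15 and 5.21. Without the 5 cells with mitotic transcripts, 13 UMIs of Mki67 and 1 of Top2a remained in Dnmt1iECKO. These ratios therefore describe those 5 cells and are not read as a difference between the genotypes. Outside the gate genes, the 3 cells with the most Mki67 had 50, 28 and 30 UMIs of Vwf, in the order given for Mki67.

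Among all genes of which no cell held over 25% of the UMIs, the largest ratios were found at modest levels. The ranking covers genes past the minimum on the summed counts, which was met more easily through the Dnmt1iECKO cells. Smc4, a condensin subunit, led those higher in Dnmt1iECKO, at 78.0 and 262 CPM (1.75, 1.27 to 2.25), and was at 1.14 without the cells with mitotic transcripts. Ly96, which encodes the MD-2 partner of TLR4, was at 29.7 and 82.9 CPM (1.48, 0.70 to 2.35), and Tlr4 itself at 42.7 and 84.7 CPM (0.99, 0.32 to 1.72). Apold1, an early response gene of ECs, was at 156 and 379 CPM (1.28, 0.94 to 1.64) and was found in 17 of 23 and 33 of 44 cells. Banf1, Nop56, Kirrel3, H1f0, Dcun1d5, Fry and Batf2 completed the 10 highest, with ratios from 1.15 to 1.39. Of the 10, Banf1 and H1f0 stayed past 2-fold under all 18 alternatives and the others did not. The lowest values were 0.13 for Batf2 when 1 UMI of each excluded gene was allowed, and 0.59 for Ly96 and 0.74 for Kirrel3 in cells with 5000 to 30000 UMIs.

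Among the genes lower in Dnmt1iECKO, Rpl29, a ribosomal protein gene, had the lowest ratio, at 1019 and 171 CPM (-2.57, -2.82 to -2.33), and was also lower in the other ECs (-2.21). Ribosomal protein genes have many processed copies, so the counting of this gene is uncertain. Ccnd2, the D-type cyclin, was at 123 and 35.9 CPM (-1.77, -2.38 to -1.18). Tmem100, Bmp6 and Prkg1 were at -1.32, -1.19 and -1.48, and without cells with 2 or more aerocyte markers they were at -0.84, -0.89 and -1.83. Over all alternatives they came as near to 0 as -0.34 for Tmem100 with the gate on thinned cells, -0.58 for Bmp6 in cells with 5000 to 30000 UMIs, and -0.28 for Prkg1 without cells with immune, epithelial or fibroblast markers. Apoe (apolipoprotein E) was at 214 and 93.9 CPM (-1.18, -1.58 to -0.79). Pmp22, Atp2a2, Mpp5 and Card19 completed the 10 lowest, with ratios from -1.28 to -1.06. Of the 10, Rpl29 and Ccnd2 stayed at 0.5 times or less under all 18 alternatives and the others did not. Values came as near to 0 as -0.52 for Pmp22 with 2 or more Ackr1 UMIs required, -0.54 for Card19 in cells with 5000 to 30000 UMIs, and -0.72 for Apoe without cells with immune, epithelial or fibroblast markers. Edn1, of the hemostasis list, was not ranked because 1 control cell held 29 of its 77 UMIs. It was at 143 and 45.1 CPM (-1.66, -2.21 to -1.13) in 13 of 23 and 14 of 44 cells, with 3 control cells holding 59.7%, and at -1.02 without cells with aerocyte markers and -0.52 in cells with 5000 to 30000 UMIs. Among matrix genes Sparc was higher in the Dnmt1iECKO sums, at 438 and 755 CPM (0.79, 0.57 to 1.00), although its median per cell was 438 CPM in control and 376 CPM in Dnmt1iECKO. Its ratio came down to -0.09 under an alternative, so its direction was not stable.

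Markers of most non-endothelial cell types were low in the venule cells of both libraries, and those of arterial and lymphatic ECs were less so. The 8 platelet markers had 23 UMIs in control and 13 in Dnmt1iECKO cells, and the 4 mesothelial markers 1 and 0. Erythroid markers summed to 5.57 and 1.84 CPM, fibroblast markers to 16.7 and 12.9 CPM and mural cell markers to 106 and 25.8 CPM. In other ECs mural markers summed to 41.0 and 81.3 CPM, so the control venule cells were above them. Of the venule cells, 5 of 23 and 2 of 44 held 2 or more of the 6 mural markers, against 2.63% and 3.79% of other ECs. No alternative left cells out by mural markers. Immune markers summed to 26.0 and 47.0 CPM, and 2 of 23 control and 11 of 44 Dnmt1iECKO cells held 2 or more of the 12. Epithelial markers summed to 53.9 and 62.6 CPM, and arterial markers to 565 and 576 CPM, against 758 and 796 CPM in other ECs. Of 6 lymphatic markers, Lyve1, the hyaluronan receptor, was at 1159 and 1070 CPM, above the other ECs by 1.28 and 1.36 log2 units, while Pdpn and Reln had no UMI and Prox1 had 12 and 8. The part of these cells and transcripts in the values above was tested only by leaving cells out. Without cells with 2 or more immune, epithelial or fibroblast markers, 15 control and 28 Dnmt1iECKO venule cells remained, and the log2 ratio of their shares of ECs was 2.24 (1.29 to 3.25).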

How the data were processed

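Live CD31+CD45- cells of YUMMER1.7 tumors were profiled by 3′ single-cell RNA sequencing, with 1 control and 1 Dnmt1iECKO library, each from the pooled tumors of 3 mice. The UMI counts per gene and cell were deposited by the authors, who made them with Cell Ranger 9.0.1 against mm10. No annotation of cell types was used here. The library totals were 123830489 UMIs (control) and 141433493 UMIs (Dnmt1iECKO).

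Cells were chosen by the gate given in the report, with no doublet caller. For each gene the UMIs of all chosen cells were added up per library and given as CPM, and ratios carry exact intervals conditional on the summed counts. Genes with at least 100 UMIs in the venule cells of both libraries together were compared, and 2-fold was the mark for counting a gene. The genes named were taken from the gate genes and genes the study discusses (Vcam1, Cxcl9 and Dnmt1, with Cd274, Cd40, Tnfsf4 and Icosl), members of each list with the 2 highest and 2 lowest ratios and the 2 largest counts, the 10 highest and 10 lowest ratios over all genes (with no cell holding over 25% of the UMIs in the library where the gene was higher, and leaving out predicted genes), and the 15 genes highest against other ECs that were found in at least 25% of venule cells of each library. Genes named outside this rule (Icam1, Car4, Lyve1 and those of the matched comparison) were chosen after their values were seen. The members and lists were chosen with earlier results of these data known. Each sample is 1 library, so no test across conditions was made.

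Alternatives covered the filters on genes and mitochondrial UMIs, each term of the gate, thinning to 2000 UMIs, depth, cells with markers of other types, the 257 and 263 cells with the highest Scrublet scores (scanpy 1.11.5), scaling, equal weight per cell, the cell with the most UMIs of a gene, and the count minimum. Leaving out cells with mitotic genes or aerocyte markers, and using all cells as the denominator, were added after seeing the data. On simulated counts with counting error only, for the genotype comparison with 200 of 3108 genes altered, the intervals held the true ratio for 92 to 98% of altered genes. Analyses used Python 3.11.15, numpy 2.4.6, scipy 1.17.1 and pandas 2.3.3. Gene positions are GRCm38, and upstream sequences come from RefSeq on GRCm38.p6, where Ackr1, Selp and Sele were matched by symbol. One gene that the naming rule covers is not reported here, and of the members of a list that the rule covers not all are printed.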

Additional observations from a re-analysis of the deposited data

Results flagged for a closer look

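In 6 genes past 2-fold inside the venule cells, the Dnmt1iECKO over control ratio pointed the opposite way in the other ECs, with neither counting interval reaching 0. The difference between these ratios was not tested, since both come from the same 2 libraries. The opposite direction was not stable for Edn1 and Bmp6: without cells with 2 or more aerocyte markers their ratios in other ECs were -0.11 (-0.17 to -0.04) and -0.12 (-0.16 to -0.07). In the ECs with Selp, Sele or Slc6a2 and no Ackr1, the ratio was -0.04 for Edn1 and 0.02 for Apoe. Edn1 had a log2 ratio of -1.66 in venule cells and 0.06 (0.01 to 0.11) in other ECs. Bmp6 had -1.19 and 0.04, and Mpp5, a cell polarity gene, had -1.13 and 0.27. Apoe was the member with the widest gap, at -1.18 in venule cells and 1.07 (1.01 to 1.13) in other ECs. Nop56, a nucleolar protein gene, had 1.31 and -0.16, and Dcun1d5 had 1.18 and -0.13. Each of the 6 came within 2-fold in venule cells under an alternative. The values nearest to 0 were -0.52 for Edn1, -0.58 for Bmp6, -0.72 for Apoe, -0.79 for Mpp5, 0.96 for Nop56 and 0.83 for Dcun1d5.

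Cells left out of the gate also held Ackr1. With Ackr1 and at least 1 of Selp, Sele and Slc6a2, 20 Dnmt1iECKO cells and 4 control cells were left out for a UMI of Ptprc, Epcam, Cspg4 or Myh11, and 11 and 3 of them had exactly 1 such UMI. Ptprc was the reason in 14 of the 20 and 3 of the 4. Their median depth was 29791 and 27585.5 UMIs.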

How the results depend on the processing

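The share of venule cells among ECs was higher in Dnmt1iECKO under all 15 alternatives, with a log2 ratio of 2.01 to 2.62 in 14 of them and 0.92 with all cells past the filters as the denominator. The inside of the venule cells was less stable. When 1 UMI of each excluded gene was allowed, the IFNγ median was -0.049, Cxcl9 -0.31 and Vcam1 0.020, and with 2 of Selp, Sele and Slc6a2 required Vcam1 was 0.028. With the gate on thinned cells 23 genes were 2-fold higher and 21 at 0.5 times or less among 1713 genes, the IFNγ median was 0.41 and Vcam1 0.58. In cells with 5000 to 30000 UMIs 19 genes were 2-fold higher among 1504 genes, the vein identity median was 0.67, type I interferon -0.75, Dnmt1 -1.41, Cxcl9 0.44 and Vcam1 0.41. Without cells with platelet or erythroid markers Cxcl9 was 0.32. Without cells with immune, epithelial or fibroblast markers vein identity was 0.30, IFNγ -0.14, type I interferon -0.73, Dnmt1 -1.46, Cxcl9 0.36 and Vcam1 0.32. Without cells with mitotic genes Dnmt1 was -0.77, and without cells with aerocyte markers type I interferon was -0.45, Cxcl9 -0.50 and Vcam1 -0.014. With equal weight per cell vein identity was 0.10, Dnmt1 -0.44, Cxcl9 0.12 and Vcam1 0.27, and Cxcl1 turned from 1.20 to -0.21. Without the cell with the most UMIs of each gene vein identity was -0.0085 and Vcam1 0.28. With a minimum of 30 UMIs, 262 genes were 2-fold higher and 174 at 0.5 times or less among 6664 genes. The cause of these shifts was not tested.

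Of the 1919 single-gene ratios recomputed, 1666 stayed within the counting interval of the reported value, and size factors moved every ratio by 0.01 log2 units. No paired analysis was possible because each condition had 1 library, and for the same reason no replicate could be left out. With 23 control cells, shares of cells and genes of few UMIs are limited by counting alone.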

Other observations

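Each partner gene of Ackr1 was also found in a larger share of all ECs of the Dnmt1iECKO library. Selp was found in 5.89% (5.25 to 6.59) of control and 10.4% (9.07 to 11.7) of Dnmt1iECKO ECs, Sele in 2.40% (1.99 to 2.86) and 5.78% (4.81 to 6.87), and Slc6a2 in 5.00% (4.41 to 5.64) and 10.0% (8.76 to 11.4). After thinning to 2000 UMIs the shares were 2.85% and 6.72% for Selp, 1.49% and 3.52% for Sele, and 2.78% and 6.88% for Slc6a2. The venule cells held 432 of the 549 Ackr1 UMIs of the control library and 655 of the 954 of the Dnmt1iECKO library.

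Cells with Cxcl9 were mostly cells with Cxcl10. All 6 control cells with Cxcl9 also had Cxcl10, and so did 8 of the 10 Dnmt1iECKO cells, while Vcam1 was found in 5 of the 6 and 10 of the 10. The Dnmt1iECKO cell with the most Cxcl9 (195 UMIs) also had the most Ubd (157 UMIs) and 52 UMIs of Cd274.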
